A study of Mus musculus with 2 samples.

Results

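Prostaglandins are lipid signals that the stroma of the gut wall makes for the epithelium, vessels and muscle beside it. They were followed here through 5 genes of their synthesis and reception, chosen by name with earlier results of these data known. Ptgs1 and Ptgs2 encode the cyclooxygenases COX-1 and COX-2, which turn arachidonic acid into the shared precursor prostaglandin H2. Ptges encodes microsomal prostaglandin E synthase, Ptgis encodes prostacyclin synthase, and Ptger1 encodes EP1, a receptor for prostaglandin E2. All 5 were listed in both raw count matrices, among 16098 genes listed in both, 16381 in the colon and 18262 in the small intestine.

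The study profiled stromal cells of healthy, untreated mice with the 10x Genomics 3' droplet method for single-cell RNA, making 1 library from the colon and 1 from the small intestine. In both, live cells negative for CD45 and CD326 (EpCAM) were sorted, which leaves out immune and epithelial cells. Digestion lasted 60 min for the colon and 45 min for the small intestine, so tissue and digestion time cannot be told apart. Strain, age, sex and number of animals are not given in the sources used here. The colon library held both 1751 cells that had UMIs of Y-linked genes but none of Xist and 2700 cells with the reverse. In the small intestine 6896 cells had Y-linked UMIs, and Xist was not listed in that matrix. The libraries may thus differ in sex as well as in tissue. A UMI marks 1 captured RNA molecule. With 1 library per tissue there was no test between tissues, and all intervals are 95% and cover counting error only.

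The libraries held 6018 colon cells with 40684070 UMIs and 9359 small intestinal cells with 58134526 UMIs. Only 21 cell barcodes were shared between them. The authors' labels gave 6 types that numbered 50 or more cells in both libraries. Fibroblasts came in 3 subtypes, CD81- FBs, CD81+ trophocytes and PDGFRa-hi SEMFs (subepithelial myofibroblasts, which lie under the epithelium), with 3631, 875 and 1105 cells in the colon and 2823, 1913 and 1109 in the small intestine. The other types were lymphatic endothelial cells (LECs, 217 and 2498 cells), blood endothelial cells (BECs, 53 and 524) and smooth muscle cells (SMCs, 125 and 468). Each type carried its own defining markers, with SEMF markers summing to 5121 and 8631 counts per 1000000 UMIs (CPM) in SEMFs, colon first. Small intestinal SMCs also carried CD81- fibroblast markers at 9340 CPM in sum, close to the 8675 CPM of small intestinal CD81- FBs and against 1344 CPM in colon SMCs, and the part of those cells in the SMC values was not tested. Only 1 of 4 mast cell and 2 of 5 epithelial markers were listed in both matrices, and these summed to at most 11 CPM in the 6 types. Other lists were higher in places. Plasma cell markers summed to 14.0 CPM in colon and 417.6 CPM in small intestinal SEMFs. Macrophage and leukocyte markers summed to 415.3 CPM in colon and 54.3 CPM in small intestinal BECs. The part of such cells in the values was not tested.

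Prostaglandin H2 is made in small amounts in resting cells by COX-1, whereas COX-2 is known as an inducible enzyme, switched on by cytokines, growth factors and mechanical stress. The terminal synthase then sets the product: prostaglandin E2 sustains epithelial repair and acts through the EP receptors, while prostacyclin relaxes vessels and muscle. In the gut, fibroblasts near the crypt are a known source of prostaglandin E2.

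The promoter set used here held 3 of the 5 genes, without Ptgis and Ptger1. The sequences before the start of the 2 cyclooxygenase genes and of Ptges are therefore shown. They are the 250 bases upstream of each RefSeq start (build GRCm38.p6), 5′ to 3′ on the gene's strand. Capitals mark matches on either strand to 8 searched motifs, of which only C/EBP (TTNNGNAA) and GC box (GGGCGG) matches occurred. The other 6 were TATAAA, the cAMP response core TGACG, the E-box CACGTG, AP-1 (TGANTCA), the NF-kB consensus and EGR1 (GCGNGGGCG).
Ptgs1: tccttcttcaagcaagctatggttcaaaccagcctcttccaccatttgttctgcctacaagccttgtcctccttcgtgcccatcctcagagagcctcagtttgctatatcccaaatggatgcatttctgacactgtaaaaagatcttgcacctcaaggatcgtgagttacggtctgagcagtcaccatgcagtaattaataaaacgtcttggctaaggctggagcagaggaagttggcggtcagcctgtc
Ptgs2: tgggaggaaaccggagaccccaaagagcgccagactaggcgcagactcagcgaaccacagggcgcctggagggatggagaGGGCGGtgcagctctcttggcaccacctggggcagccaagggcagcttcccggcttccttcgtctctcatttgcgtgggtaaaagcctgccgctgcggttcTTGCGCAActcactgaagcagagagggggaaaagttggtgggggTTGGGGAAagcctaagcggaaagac
Ptges: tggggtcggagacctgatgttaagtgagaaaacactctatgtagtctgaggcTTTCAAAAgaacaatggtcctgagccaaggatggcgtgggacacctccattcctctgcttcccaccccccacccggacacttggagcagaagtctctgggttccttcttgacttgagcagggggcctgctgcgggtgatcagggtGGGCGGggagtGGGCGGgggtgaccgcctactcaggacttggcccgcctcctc
The Ptgs1 window, chr2:36230176-36230425 (+), held none of the 8. The Ptgs2 window, chr1:150099781-150100030 (+), held 2 C/EBP matches, 69 to 62 and 25 to 18 bases before the start, and a GC box 170 to 165 bases before it. The Ptges window, chr2:30903298-30903547 (-), held 1 C/EBP match 198 to 191 bases before the start and 2 GC boxes, 53 to 48 and 42 to 37 bases before it. Of 32851 promoters of this length, 36.8% held a C/EBP match and 32.7% a GC box, so both are common. NF-kB matches were found in 1.26%, AP-1 in 6.75%, EGR1 in 4.70%, the cAMP core in 17.8%, the E-box in 6.02% and TATAAA in 12.4%. No match says only that these letters were not in these windows. In the GENCODE annotation of GRCm38, Ptgs1 spans chr2:36230426-36252272 (+), Ptgs2 chr1:150100031-150108227 (+), Ptges chr2:30889471-30929863 (-) and Ptgis chr2:167191805-167240604 (-). The Ptges window lies inside that Ptges span, because the RefSeq start used here differs from the start of the GENCODE span.

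Ptgs1, the COX-1 gene, was highest in SEMFs in the colon and in BECs and SEMFs in the small intestine. In the colon its level was 224.7 CPM in SEMFs, 90.1 in CD81- FBs, 82.9 in SMCs, 63.0 in BECs, 49.5 in trophocytes and 11.3 in LECs. The SEMF level was 2.49 times that of CD81- FBs. The levels of CD81- FBs, SMCs, BECs and trophocytes followed in that order, and no neighbours in it differed beyond counting error. In the small intestine the order was BECs at 131.4 CPM, SEMFs at 119.6, SMCs at 78.04, CD81- FBs at 73.5, trophocytes at 8.05 and LECs at 2.05. BECs and SEMFs did not differ there beyond counting error, and neither did SMCs and CD81- FBs. A Ptgs1 UMI was seen in 66.7% of colon SEMFs and 47.2% of small intestinal SEMFs.

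The BEC level of Ptgs1 was above the level gauged for free RNA from broken cells. In small intestinal BECs 288 Ptgs1 UMIs were counted, in 158 of 524 cells, where 1.65 were expected from the 5 fibroblast genes used as a gauge. In colon BECs 17 UMIs were counted against 7.42 expected (4.96 to 8.47 over the 5 genes), from 53 cells. Those colon BECs also carried CD81- fibroblast markers at 1428 CPM in sum, against 91.7 CPM in small intestinal BECs, and the part of such cells in the colon value was not tested. LECs were at the background, with 12 UMIs counted against 11.9 expected in the colon and 23 against 16.7 (counting interval 14.6 to 34.5) in the small intestine.

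Ptgs2, the COX-2 gene, had another order, led by trophocytes in the small intestine and by SEMFs and trophocytes in the colon. Colon levels were 150.2 CPM in SEMFs, 137.6 in trophocytes, 55.5 in CD81- FBs, 38.8 in SMCs, 15.0 in LECs and 3.71 (1 UMI) in BECs. SEMFs and trophocytes did not differ beyond counting error in the colon. In the small intestine the levels were 72.8 CPM in trophocytes, 31.9 in CD81- FBs, 26.5 in SEMFs, 21.0 in SMCs, 9.58 in BECs and 2.50 in LECs. Of the 21 UMIs in small intestinal BECs, 13 were in 1 cell. The share of cyclooxygenase UMIs that came from Ptgs1 was thus lowest in trophocytes, at 26.4% (23.96 to 29.1) in the colon and 9.96% (8.33 to 11.8) in the small intestine. It was 59.9% and 81.8% in SEMFs, 61.9% and 69.8% in CD81- FBs and 94.4% and 93.2% in BECs, colon first. Reads at the 3' end are counted per molecule here, so gene length does not enter these shares.

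Over pooled fibroblasts, Ptgs2 was the most unevenly spread of the 4 synthases. The 1% of fibroblasts with the most Ptgs2 UMIs held 27.0% of all Ptgs2 UMIs of colon fibroblasts and 32.2% of those of small intestinal fibroblasts. The same share was 9.83% and 9.82% for Ptgs1, 8.36% and 9.57% for Ptges and 10.9% and 7.86% for Ptgis. In small intestinal trophocytes, where Ptgs1 was scarce, that order was reversed, with 33.1% of 121 Ptgs1 UMIs and 26.1% of 1094 Ptgs2 UMIs in 1% of the cells. The highest cell held 44 Ptgs2 UMIs in the colon, against 13 of Ptgs1. Ptgs2os, a transcript on the opposite strand that lies just upstream of Ptgs2, was highest in SEMFs, at 14.4 and 19.3 CPM, and did not follow the Ptgs2 order.

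**Figure D1:**
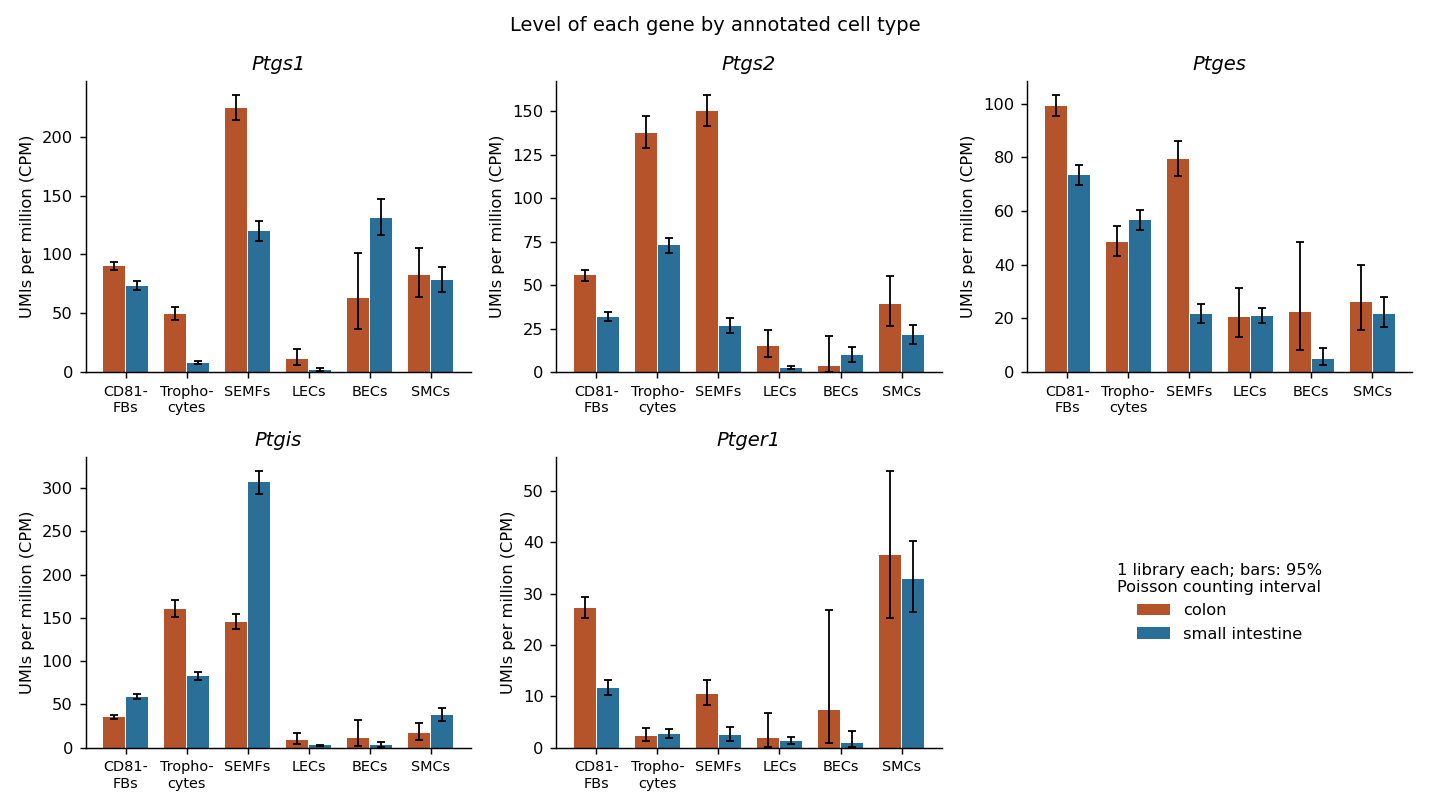
Level of the 5 genes in 6 annotated cell types, in CPM on linear axes starting at 0, with 1 bar per library and 95% Poisson counting intervals. Ptgs1 is highest in colon SEMFs, Ptgs2 in colon SEMFs and trophocytes, Ptgis in small intestinal SEMFs at 306.6 CPM, and Ptger1 in SMCs.

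Ptges, the prostaglandin E2 synthase gene, was highest in CD81- FBs of both tissues, at 99.2 CPM in the colon and 73.2 in the small intestine. In colon SEMFs it was at 79.3 CPM, with 48.5 in trophocytes, 25.9 in SMCs, 22.2 in BECs and 20.6 in LECs. In the small intestine trophocytes came second at 56.6 CPM. SMCs at 21.7, SEMFs at 21.6 and LECs at 20.9 CPM then followed, without a difference between neighbours beyond counting error, and BECs had 5.02 CPM. The LEC value in the small intestine rested on 234 UMIs in 7.41% of the cells, where 17.3 UMIs were expected as free RNA. Colon LECs had 22 Ptges UMIs against 9.48 expected.

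Ptgis, the prostacyclin synthase gene, was highest in small intestinal SEMFs at 306.6 CPM, with a UMI in 79.2% of the cells. Trophocytes there had 82.4 CPM, CD81- FBs 59.1, SMCs 37.8, BECs 3.19 and LECs 2.59. In the colon, trophocytes at 160.7 CPM were slightly above SEMFs at 145.6, by a log2 ratio of 0.14 (0.02 to 0.27). CD81- FBs at 35.4 CPM were 4.11 times lower than colon SEMFs. SMCs had 16.8 CPM, BECs 11.1 (3 UMIs) and LECs 9.39. Endothelial Ptgis was at the background, with 29 UMIs counted in small intestinal LECs against 31.0 expected, and 7 in BECs against 3.07 (counting interval 2.81 to 14.4).

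Ptger1, the EP1 receptor gene, was the scarcest of the 5 over pooled fibroblasts and was highest in SMCs and CD81- FBs. SMCs had 37.6 CPM in the colon and 32.8 in the small intestine, with a UMI in 17.6% and 17.1% of the cells. These levels were above Ptges in both and above Ptgis in colon SMCs. The colon levels rested on 29 Ptger1, 20 Ptges and 13 Ptgis UMIs, with overlapping counting intervals, and 7 of the 29 were in 1 cell. Colon SMCs and CD81- FBs did not differ in Ptger1 beyond counting error. CD81- FBs had 27.2 and 11.7 CPM, SEMFs 10.5 and 2.45, trophocytes 2.36 and 2.73, LECs 1.88 and 1.25, and BECs 7.42 and 0.912, colon first. Whether the counting used strand is not given in the sources used here, so reads from the opposite strand may be among these counts.

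Between the tissues, the cyclooxygenase genes, Ptges and Ptger1 were higher in colon fibroblasts and Ptgis was higher in small intestinal fibroblasts. Over pooled fibroblasts, Ptgs1 was at 109.4 CPM (colon) and 57.1 CPM (small intestine), with a log2 ratio of 0.94 (0.86 to 1.01). Ptgs2 was at 87.4 and 45.8 CPM, a log2 ratio of 0.93 (0.85 to 1.01). For Ptges the levels were 87.0 and 59.1 CPM and the log2 ratio 0.56 (0.48 to 0.63). Ptgis went the other way, with 77.4 and 106.2 CPM and a log2 ratio of -0.46 (-0.52 to -0.39). Ptger1 differed most, with 19.9 and 7.001 CPM and a log2 ratio of 1.51 (1.31 to 1.71). The median gene had a log2 ratio of -0.17 in pooled fibroblasts. Of the 5 genes, only Ptger1 passed 2-fold, against 16.4% of all 13307 genes tested (at least 100 UMIs in both libraries together), 6.88% higher in the colon and 9.47% higher in the small intestine. Relative to the median gene, Ptgs1 and Ptgs2 (both 1.11) passed it too, making 3 of 5. The share of all genes past 2-fold on that scale was not counted.

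These pooled values hid larger and opposite ratios in the subtypes. In SEMFs the synthases differed in both directions. Ptgs2 was at 150.2 CPM in colon SEMFs and at 26.5 in small intestinal ones, a log2 ratio of 2.50 (2.27 to 2.74). Ptges was at 79.3 and 21.6 CPM, a log2 ratio of 1.88 (1.61 to 2.15). Ptgs1 had a log2 ratio of 0.91 (0.79 to 1.03), whereas Ptgis had -1.07 (-1.18 to -0.97). Both cyclooxygenase genes and Ptges were thus higher in colon SEMFs, and Ptgis in small intestinal SEMFs.

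In trophocytes the largest ratio belonged to Ptgs1, at 49.5 CPM against 8.05, with a log2 ratio of 2.62 (2.31 to 2.93). Ptgs2 and Ptgis were also higher in colon trophocytes, with log2 ratios of 0.92 (0.79 to 1.05) and 0.96 (0.84 to 1.08). Ptges was slightly lower there, with a log2 ratio of -0.22 (-0.41 to -0.03). In CD81- FBs the log2 ratios were 0.29 for Ptgs1, 0.80 for Ptgs2, 0.44 for Ptges, -0.74 for Ptgis and 1.22 (1.01 to 1.44) for Ptger1. Ptger1 in SEMFs rested on 78 and 16 UMIs, with a log2 ratio of 2.10 (1.31 to 2.97).

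Outside the fibroblasts, Ptgs1 was lower in colon BECs, with a log2 ratio of -1.06 (-1.86 to -0.35) from 17 and 288 UMIs. In SMCs, Ptgs1 and Ptger1 had log2 ratios of 0.09 (-0.34 to 0.49) and 0.20 (-0.46 to 0.81), and Ptgis one of -1.17 (-2.12 to -0.33) from 13 and 106 UMIs. These SMC ratios stand beside CD81- fibroblast markers that summed to 1344 CPM in colon and 9340 CPM in small intestinal SMCs. The genes past 2-fold, of those with enough UMIs, numbered 1 of 5 in CD81- FBs (16.8% of all genes tested), 1 of 4 in trophocytes (12.5%) and 3 of 4 in SEMFs (20.5%). They numbered 0 of 1 in LECs (18.8%), 1 of 1 in BECs (22.7%) and 1 of 3 in SMCs (20.7%). Relative to the median gene the counts were 2 of 5 in CD81- FBs, 3 of 4 in trophocytes, 3 of 4 in SEMFs, and 0 in LECs, BECs and SMCs. The share of all genes was not counted on that scale, and the percentages above do not apply to it. In SEMFs the 3 were then Ptgs1, Ptgs2 and Ptges, and Ptgis at -0.74 no longer passed.

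**Figure D2:**
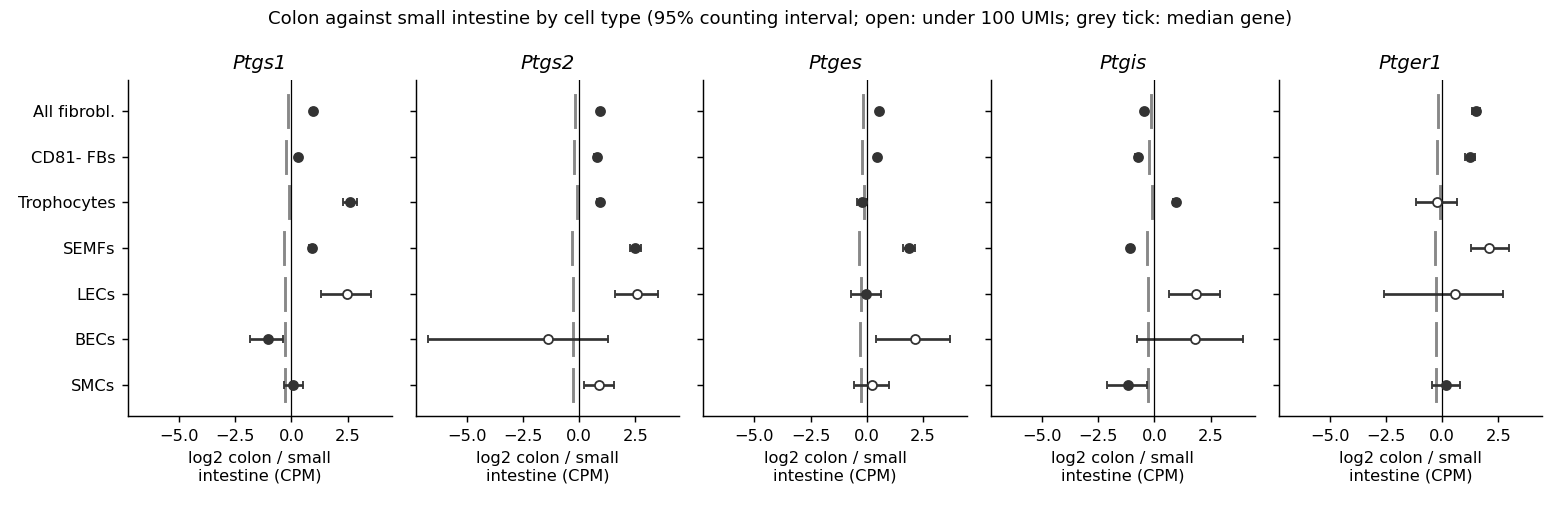
Log2 ratio of colon to small intestine CPM for each gene in pooled fibroblasts and in 6 types, with 95% counting intervals, open points for genes under 100 UMIs in both libraries together and a grey tick at the median gene of the type. Ptgs2 (2.50) and Ptges (1.88) lie far to the right in SEMFs and Ptgis (-1.07) to the left, while in trophocytes Ptgs1 stands out at 2.62. Ptger1 in BECs has no ratio because both counts are at the floor of 3 counts.

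The SEMF differences came with a broad difference in early response genes, the immediate targets of stress, growth factor and dissociation signals. Of 24 such genes tested in SEMFs, 16 were at least 2-fold higher in the colon and 0 in the small intestine, with a median log2 ratio of 1.57, where 5.36% of all genes passed 2-fold toward the colon. Fos was at 1257 CPM in colon SEMFs and 345.7 in small intestinal SEMFs, Nr4a2 at 122.8 and 6.44, and Ier3 at 248.5 and 21.9. Over pooled fibroblasts 5 of 26 were at least 2-fold higher in the colon (6.88% of all genes) and 3 in the small intestine (9.47%). Their median log2 ratio was 0.06. The part of these genes' state in the Ptgs2 ratio was not tested. When each library's SEMFs were split at their median share of early response UMIs, Ptgs2 in the cells below it was at 43.4 CPM (colon) and 19.2 CPM (small intestine), with a log2 ratio of 1.17. These cells were not matched, since their median early response share was 0.442% of UMIs in the colon and 0.181% in the small intestine, where the cells above the median had 0.526%. SEMFs also differed in other lists. CD81- fibroblast markers summed to 4704 CPM in colon and 2334 CPM in small intestinal SEMFs, with Cxcl13 and Fgf10 at least 2-fold higher in the colon. SMC markers summed to 2628 and 4896 CPM, pericyte markers to 153.8 and 1241 and plasma cell markers to 14.0 and 417.6. Their part in the ratios was not tested.

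Ptgs2 followed this split in every fibroblast subtype. In colon SEMFs it was at 43.4 CPM below and 254.0 CPM above the median. In colon trophocytes the values were 90.1 and 181.2 CPM, and in colon CD81- FBs 33.0 and 77.7. Small intestinal trophocytes had 44.5 and 103.1 CPM, CD81- FBs 11.97 and 50.9, and SEMFs 19.2 and 33.8. Ptgs1 had no such pattern, at 194.2 and 254.3 CPM in colon SEMFs, 121.6 and 117.5 in small intestinal SEMFs and 90.6 and 57.1 in small intestinal CD81- FBs. Ptgis was lower above the median in colon SEMFs, at 109.8 CPM against 182.5, and in colon trophocytes, at 139.9 against 183.2. It was level in small intestinal SEMFs, at 309.5 against 303.7.

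**Figure D3:**
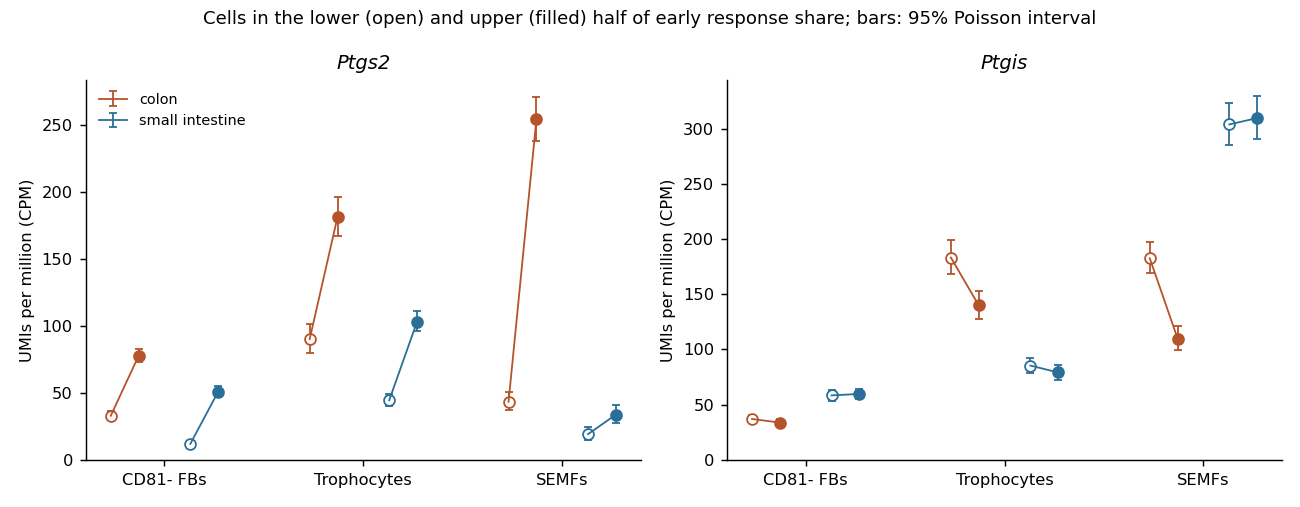
Ptgs2 and Ptgis levels, in CPM on linear axes, in fibroblasts below (open) and above (filled) the median summed early response share within each subtype and library, with 95% Poisson intervals. Ptgs2 is higher above the median in all 6 groups, most in colon SEMFs (43.4 against 254.0 CPM). Ptgis is lower above it in colon SEMFs (182.5 against 109.8 CPM) and colon trophocytes (183.2 against 139.9 CPM).

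Single cells were then asked which synthases they held together. At least 1 of the 4 was detected in all but 9.14% of colon SEMFs and 9.74% of small intestinal SEMFs, and in all but 26.7% and 27.1% of CD81- FBs. At least 3 synthases were seen in 21.4% (3 synthases) and 3.80% (4 synthases) of colon SEMFs, against 8.75% and 0.631% of small intestinal SEMFs. Detection depends on depth, so pairs were also counted after thinning each cell to 2000 UMIs, which left out 63 colon and 102 small intestinal fibroblasts. The count of cells with both genes was divided by the product of the genes' shares, so that 1 means no association.

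In colon SEMFs, Ptgs2 and Ptgis were found together less often than the product of their shares. With all UMIs, 114 cells held both where 160.4 were expected, a ratio of 0.71 (0.59 to 0.85). After thinning, 14 cells held both where 38.3 were expected, a ratio of 0.37 (0.20 to 0.61). In the 553 cells below the median early response share the ratio with all UMIs was 0.84 (0.61 to 1.13). That interval includes 1 and overlaps the 0.59 to 0.85 of all cells. Ptgis was seen in 35.96% of Ptgs2-positive and 56.5% of Ptgs2-negative colon SEMFs. Ptgs1 and Ptgs2, in contrast, were found together more often, in 263 cells against 211.4 expected, a ratio of 1.24 (1.10 to 1.40) and of 1.47 (1.17 to 1.84) after thinning. Below the early response median, with all UMIs, it was 1.24 (0.96 to 1.56), beside 1.24 in all cells. Ptgs2 and Ptges had a ratio of 1.39 (1.19 to 1.63) with all UMIs but of 1.11 (0.72 to 1.62) after thinning.

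In colon CD81- FBs, Ptgs1 was found together with Ptgs2, Ptges and Ptgis more often than the product of shares, with ratios after thinning of 1.49 (1.12 to 1.94), 1.25 (1.03 to 1.51) and 1.45 (1.07 to 1.92). There Ptgs2 and Ptgis had a ratio of 0.74 (0.59 to 0.91) with all UMIs and 0.79 (0.42 to 1.36) after thinning. In colon trophocytes Ptgs2 and Ptgis were at 1.02 (0.71 to 1.41) after thinning. In small intestinal SEMFs the same pair was at 0.87 (0.53 to 1.35) after thinning and 1.06 (0.86 to 1.30) with all UMIs. Every pair in the small intestinal subtypes had an interval that included 1 after thinning. The difference between the tissues in these ratios was not tested.

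**Figure D4:**
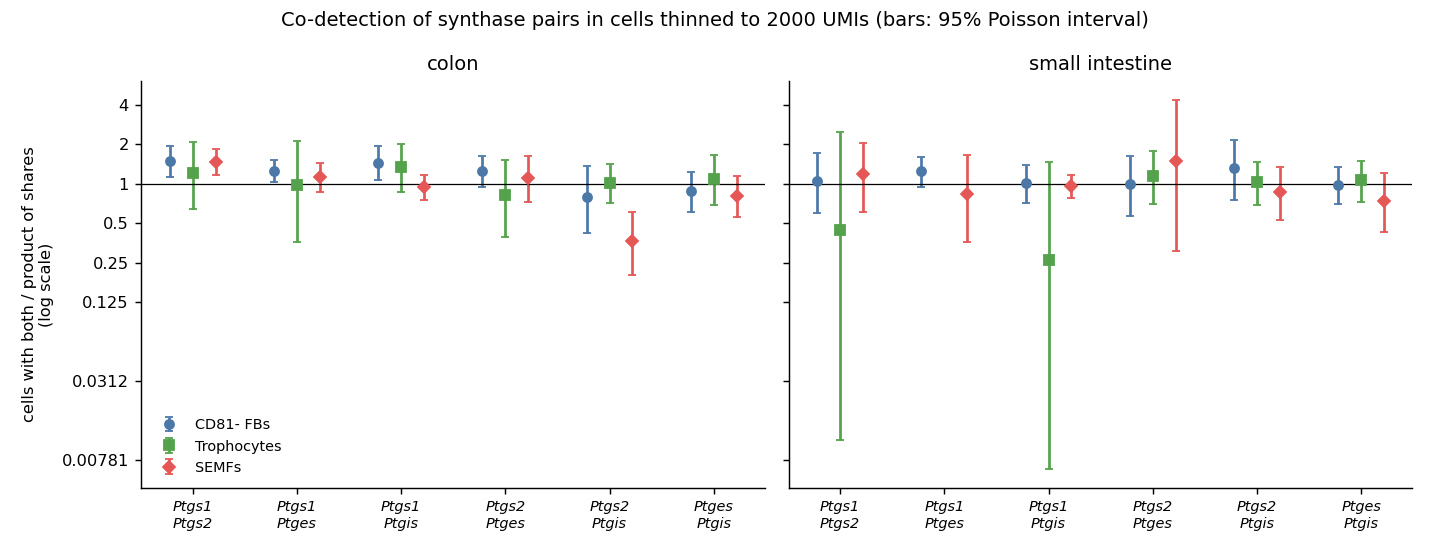
Cells holding both genes of a synthase pair divided by the product of the genes' shares, on a log axis, in cells thinned to 2000 UMIs, for 3 fibroblast subtypes of each library with 95% Poisson intervals. Ptgs2 with Ptgis in colon SEMFs lies lowest among the colon pairs at 0.37, and Ptgs1 with Ptges in small intestinal trophocytes is not drawn because 0 cells held both.

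Ptgs2-positive colon SEMFs held more Ptgs1 and Ptges RNA and less Ptgis RNA than Ptgs2-negative ones. The 317 cells with a Ptgs2 UMI were set against the 788 without, leaving Ptgs2 itself out. Ptgs1 was at 333.4 CPM in the positive and 173.4 in the negative cells, a log2 ratio of 0.94 (0.80 to 1.08). Ptges was at 102.8 and 68.3 CPM, a log2 ratio of 0.59 (0.35 to 0.83). Ptgis was at 87.7 and 173.0 CPM, a log2 ratio of -0.98 (-1.21 to -0.76). With 2 Ptgs2 UMIs as the limit for a positive cell, it was -1.93. The positive cells had a median of 7162 UMIs against 6012.5.

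Other pathway genes differed in these cells too. Pla2g4a, the cytosolic phospholipase A2 that frees arachidonic acid, was at 411.4 CPM in positive and 175.0 in negative cells. Tbxas1, thromboxane synthase, was at 81.4 and 15.6 CPM, a log2 ratio of 2.38 (1.99 to 2.78). Pla2g7, which breaks down platelet-activating factor, was at 152.7 and 47.3 CPM, and Abcc4, an exporter that carries prostaglandins, at 102.8 and 46.1. Among genes for inducers and their factors, Nfkbia, an NF-kB inhibitor that NF-kB itself induces, was at 379.6 and 130.1 CPM and Il1r1, the interleukin-1 receptor, at 158.5 and 92.9. Hpgd, the enzyme that inactivates prostaglandins, was at 212.2 and 298.0 CPM.

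Early response genes were higher in the same cells. Of 23 tested, 16 were at least 2-fold higher in Ptgs2-positive colon SEMFs, with a median log2 ratio of 1.42, where 2.75% of all genes were. Egr1 was at 1225 and 342.3 CPM, Atf3 at 312.0 and 76.6, and Ier3 at 518.4 and 121.2. The count was 11 of 22 (1.86% of all genes) among cells in which only Y-linked UMIs were seen. It was 16 of 22 (3.63%) among cells in which only Xist was. With 2 UMIs as the limit it was 19 of 23 (3.79%). SEMF markers were level or nearly so for Pdgfra (1119 and 1146 CPM), Bmp5 (1202 and 1222) and F3 (635.8 and 627.8). Contractile genes were lower, with Acta2 at 800.2 and 1721 CPM and Tagln at 553.6 and 1388, and Sox6 was at 1084 and 1640. Wnt5a, a signal ligand of SEMFs, was at 545.2 and 362.3 CPM. Markers of other cells also moved. BEC markers summed to 41.5 CPM in positive and 11.7 CPM in negative cells, with 6 of 7 higher in the former, and Plvap, the largest difference in CPM among them, was at 19.3 and 5.35. LEC markers summed to 15.1 and 6.53 CPM (3 of 6 higher) and trophocyte markers to 57.0 and 33.9 (3 of 6), of which Cd81 was at 22.6 and 2.77. Cxcl13, a CD81- fibroblast marker, was at 143.9 and 67.3 CPM, while its list summed to 4761 and 4678. The part of such cells was not tested. Without the 6% of cells scoring most like doublets, the count of early response genes was 16 of 23 (2.62% of all genes). The Ptgis log2 ratio was then -0.97.

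In the other 5 groups, most early response genes were also higher in Ptgs2-positive cells, with smaller medians. The number at least 2-fold higher was 0 of 26 in colon CD81- FBs (0.372% of all genes) and 0 of 25 in colon trophocytes (0.275%), with median log2 ratios of 0.25 and 0.43. It was 1 of 24 in small intestinal CD81- FBs (0.207%), 1 of 25 in trophocytes (0.217%) and 0 of 21 in SEMFs (0.234%), with medians of 0.67, 0.23 and 0.27. Ptgis was lower in Ptgs2-positive cells of all 3 colon subtypes, with log2 ratios of -0.77 (-1.09 to -0.47) in CD81- FBs and -0.29 (-0.49 to -0.10) in trophocytes. In the small intestine it was at -0.09 (-0.37 to 0.17) in CD81- FBs, 0.19 (-0.00 to 0.39) in trophocytes and -0.12 (-0.33 to 0.09) in SEMFs. The spread of these values among the 6 groups was not tested.

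**Figure D5:**
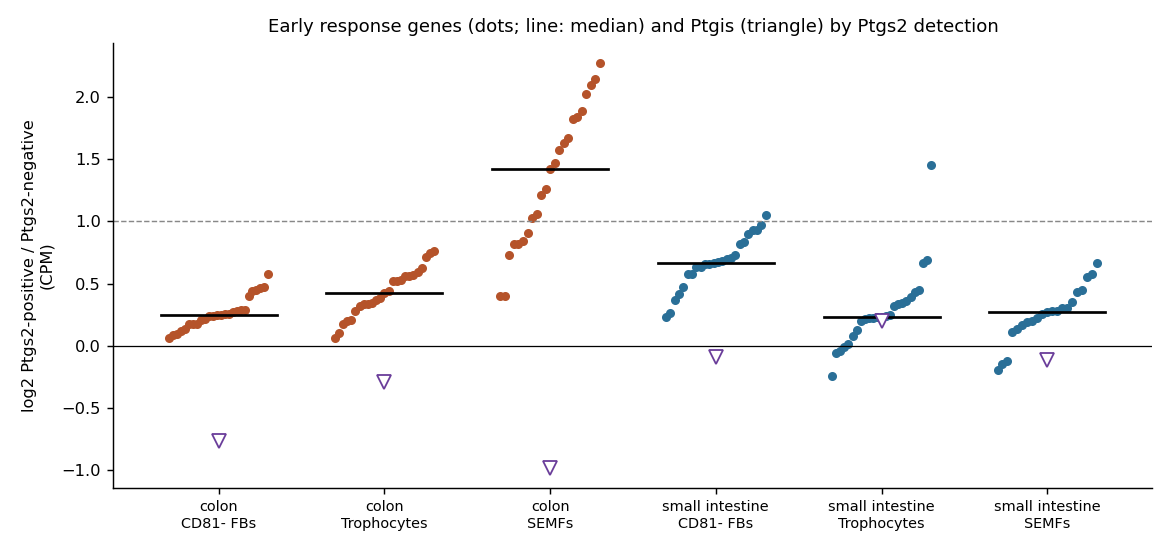
Log2 ratio of Ptgs2-positive to Ptgs2-negative cells for each tested early response gene (dots, with a line at the median) and for Ptgis (triangle) in 3 fibroblast subtypes of each library, with a dashed line at 2-fold. Colon SEMFs have a median of 1.42 for the early response genes and -0.98 for Ptgis.

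The rest of the pathway was described from lists. Of 14 phospholipases and related genes, 7 could be tested in pooled fibroblasts, with 1 at least 2-fold higher in the colon and 2 in the small intestine (6.88% and 9.47% of all genes), and a median log2 ratio of -0.22. Pla2g4a was highest in SEMFs, at 250.8 CPM in the colon and 306.3 in the small intestine, and was at 134.0 and 270.8 in CD81- FBs. Pla2g7 was at 81.1 and 5.06 CPM in SEMFs. Pla2g2e, a secreted phospholipase, was at 4.40 and 29.3 CPM in trophocytes, and Pla2g4c was low, at 0.364 and 2.52 CPM in fibroblasts. Anxa1, an inhibitor of phospholipase A2, was at 273.7 and 369.2 CPM in fibroblasts, colon first.

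The 7 other synthases tested in fibroblasts had a median log2 ratio of 0.56. Of these, 1 was at least 2-fold higher in colon fibroblasts and 0 in small intestinal ones (6.88% and 9.47% of all genes). That gene, Tbxas1, was at 36.7 CPM in colon SEMFs and 2.45 in small intestinal SEMFs. Ptges3, the cytosolic prostaglandin E synthase, was level at 190.1 and 210.5 CPM in fibroblasts. Akr1b3, an aldo-keto reductase, was at 137.6 and 72.6 CPM, and Akr1b8 was highest in SEMFs at 109.6 and 92.3 CPM.

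Among 8 receptors tested, 1 was at least 2-fold higher in colon fibroblasts and 1 in small intestinal ones (6.88% and 9.47% of all genes). The median log2 ratio of the 8 was 0.14. Ptgir, the prostacyclin receptor, was at 17.7 CPM in colon and 4.06 in small intestinal trophocytes, and at 0.269 and 0 in SEMFs, the type with the most Ptgis in the small intestine. Ptgfr, the prostaglandin F receptor, was at 24.3 and 65.0 CPM in trophocytes. Of the other prostaglandin E2 receptors, Ptger4 was at 41.9 and 29.2 CPM in fibroblasts and Ptger2 at 19.0 and 17.5, both above Ptger1 in small intestinal fibroblasts. Ptger2 had 4 and 3 UMIs in trophocytes, and reached 44.8 CPM in small intestinal SEMFs and 32.1 in small intestinal LECs. Ptger3 had 76 and 18 UMIs in all fibroblasts. Ptgfrn, a negative regulator of Ptgfr, was at 143.3 and 168.8 CPM, and of the lipid-sensing nuclear receptors Pparg was at 63.2 and 41.5 CPM in CD81- FBs and Ppard highest in small intestinal BECs at 56.1.

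For breakdown and transport, 7 genes were tested in fibroblasts, and 0 passed 2-fold in either direction (16.4% of all genes). Their median log2 ratio was -0.20. Hpgd moved in opposite directions by subtype, at 270.4 CPM in colon and 81.9 in small intestinal SEMFs but 178.6 and 486.0 in trophocytes. Slco2a1, the prostaglandin uptake transporter, was a BEC gene, at 459.8 CPM in the colon and 1071 in the small intestine, with at most 20.1 CPM in the other types. Abcc4 was at 64.3 and 63.9 CPM in SEMFs and at 63.0 and 243.1 in BECs. In the leukotriene list 2 genes could be tested in fibroblasts and 0 passed 2-fold in either direction (16.4% of all genes). Ltc4s was at 245.9 CPM in small intestinal LECs and 22.5 in colon LECs, and Cysltr1 at 178.8 and 26.0 in BECs.

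The 15 inducers and factors tested in fibroblasts had a median log2 ratio of -0.57. In colon fibroblasts 0 were at least 2-fold higher, and in small intestinal ones 2 were (6.88% and 9.47% of all genes). These were Tlr2, at 4.49 and 9.59 CPM, and Egfr, at 182.8 and 366.6. Il1r1 was at 27.3 CPM in colon and 109.8 in small intestinal trophocytes. Nfkbia was at 210.0 and 62.1 CPM in SEMFs, whereas Cebpb was at 272.8 and 361.7.

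Patterns over the 12 groups of type and library were compared by Pearson's r of log2(CPM + 10), as a description, since groups of 1 library share depth and free RNA. Ptgs2 was most like Ptgis (0.74) and Ptges (0.72) among the other 4, and Ptgis and Ptger1 were unrelated (-0.02). Among 6083 genes with at least 50 CPM in some group, those most like Ptgs1 were Tbx3 (0.88), Nkx2-3 (0.87) and Mpped2 (0.85). For Ptgs2 they were Vasn (0.93), Dnm1 (0.91) and Mt2 (0.91), and for Ptges P4hb (0.93), Mmp14 (0.89) and Ctsf (0.88). For Ptgis they were Chrd (0.96), Pdgfra (0.96) and Nbl1 (0.95), and for Ptger1 Kcns3 (0.96), Nmnat2 (0.95) and Cpxm2 (0.92). With rank correlation only Nbl1 of these 15 stayed among the 3 most similar genes of its member.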

How the data were processed

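Values came from 1 library each of mouse colon and small intestinal stroma. Per the submitters' processing notes, Cell Ranger 7.1.0, Seurat 4 and build mm10 were used. The authors deposited raw UMI counts per gene and cell, natural log values and a cell type label per cell. The deposited natural log values equalled the log of 1 plus UMIs per 10000 of the cell, within 1e-06. The colon's capillary, arterial and venous labels were pooled as BECs. Doublets were left in for the main values, and the sources used here do not say if the authors took any out.

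UMIs were summed per library and type and given as CPM. Levels carry exact Poisson, ratios exact conditional binomial and shares Clopper-Pearson intervals (95%). Where both counts were at most 3, no ratio was formed. Genes needed 100 UMIs in both groups together to be counted against the 2-fold limit. Named pathway genes had at least 50 CPM in a compared type or passed 2-fold in pooled fibroblasts, and others were named after their values were seen. Free RNA was gauged in endothelial cells from 5 fibroblast genes. The members and lists were chosen with earlier results of these data known. The ratio script was tested on simulated data. Tools were Python 3.11.15, numpy 2.4.6, scipy 1.17.1, pandas 2.3.3, scikit-learn 1.9.0 and matplotlib 3.10.9.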

Additional observations from a re-analysis of the deposited data

Results flagged for a closer look

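For 3 of the 5 genes the tissue ratio had opposite signs in different cell types, with counting intervals on either side of 0; with 1 library per tissue these differences were not tested. Ptgs1 had a log2 ratio of colon to small intestine of 2.62 in trophocytes and -1.06 in BECs, a gap of 3.68. Ptges had 1.88 in SEMFs and -0.22 in trophocytes, a gap of 2.10. Ptgis had 0.96 in trophocytes and -1.17 in SMCs, a gap of 2.13, and was also at -1.07 in SEMFs. The SMC value rested on 13 and 106 UMIs and stands beside CD81- fibroblast markers at 1344 CPM in colon and 9340 CPM in small intestinal SMCs.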

How the results depend on the processing

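The pooled fibroblast log2 ratios of all 5 genes kept their sign under the 12 alternatives run. In the order Ptgs1, Ptgs2, Ptges, Ptgis and Ptger1 they were 0.79, 0.88, 0.58, -0.57 and 1.46 as means of each cell's CPM and 0.26, 0.17, 0.18, -0.23 and 0.10 as differences of the deposited log values on the log2 scale, which are smaller by construction for sparse genes. They were 1.11, 1.11, 0.73, -0.28 and 1.68 relative to the median gene, 0.83, 0.79, 0.60, -0.56 and 1.53 in thinned cells and 0.84, 0.79, 0.61, -0.54 and 1.53 without the 6% of cells with most UMIs. With equal subtype weights they were 0.86, 1.39, 0.58, -0.39 and 1.25, and in cells below the median early response share 0.72, 0.81, 0.58, -0.27 and 1.12. Against colon cells with Y-linked UMIs only they were 0.89, 0.92, 0.38, -0.43 and 1.29, and with Xist only 0.96, 0.99, 0.72, -0.48 and 1.71.

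In single types, the ratio of Ptges in trophocytes turned to 0.13 with Xist cells only, and that of Ptgs2 in SMCs, from 30 colon UMIs, to -0.67 with Y-linked and -1.25 with Xist cells. In colon SEMFs, co-detection of Ptgs1 with Ptgs2, Ptgs2 with Ptges and Ptgs2 with Ptgis was 1.47, 1.11 and 0.37 after thinning and 1.90, 2.34 and 0.31 with 2 UMIs as the limit. Alternatives on Ptgs2-positive cells and on cells below that median for co-detection were added after seeing the data. Below it Ptgs2 with Ptgis was 0.84 with all UMIs, beside 0.71 in all cells. With a minimum of 20 UMIs, or of 1 UMI in each library, 3125 or 3313 genes passed 2-fold in pooled fibroblasts, against 2176. In the 6 types these minimums gave 2349 to 3245 and 3460 to 4317 genes, against 960 to 2051. Where an alternative left 0 UMIs of a gene in 1 library, no ratio was given.

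No paired analysis was possible because each tissue has 1 library. Counts limit BECs (53 colon cells), LECs and SMCs most, and no value has a replicate check.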
